A study of Rattus norvegicus with 18 samples.

Results

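The nucleus accumbens was compared with the hippocampus, gene by gene, in the brains of untreated rats from a pair of lines bred for opposite alcohol preference. The comparison used every array of these areas, 12 of the 18 in the series. Those arrays carry 12 of the 18 RNA pools, 6 of nucleus accumbens and 6 of hippocampus, and the remaining 6 pools are of prefrontal medial cortex. No measured value entered the choice of arrays, which follows the area named in the labels.

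The rats were males of the strains WHP, which prefer high amounts of ethanol, and WLP, which prefer low amounts, and all were alcohol-naive. Each pool held equal amounts of total RNA from 3 rats of 1 strain, and each area had 3 WHP and 3 WLP pools, which the labels call biological replicates. RNA was extracted on RNeasy columns after decapitation and labelled with Agilent's two-colour low-input kit. A WHP and a WLP pool of the same area shared an array in different dyes, and the same pair was put on another array with the dyes exchanged. Here the brightness of each dye was read as a level of its own pool, and the 2 channels of a pool were averaged. Pooled animals leave no view of single rats, and it is not stated if accumbens and hippocampus were taken from the same animals.

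The nucleus accumbens is the ventral part of the striatum. Most of its neurons are medium spiny neurons, which release GABA, receive dense dopamine input and carry either the Drd1 or the Drd2 dopamine receptor, beside smaller numbers of cholinergic and GABAergic interneurons. The hippocampus is a part of the pallium, the region that also forms the cerebral cortex, and its main neurons release glutamate: pyramidal cells in the CA fields and granule cells in the dentate gyrus. The striatum is known for reward and action selection and the hippocampus for memory and place.

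All levels below are log2 of background-corrected and normalised brightness, and a difference is accumbens minus hippocampus on that log2 scale, so that 1 is 2-fold and a negative value means lower in accumbens. Its error is limma's standard error over 6 pools of each area, with strain as a covariate. Levels of different genes come from different probes and are not set against each other. Of 34073 probes detected in at least 1 area, 12078 (35.4%) were higher and 13501 (39.6%) lower in accumbens at an adjusted p under 0.05. Most differences were small: 59.7% of those probes differed by less than 0.5. At least 2-fold differences were held by 1386 probes higher (4.07%) and 1216 lower (3.57%). Of these, 53.3% were higher in accumbens, and 28.8% under median scaling of the arrays. The excess of lower calls over all probes depends on the filter: among probes detected in both areas, 11444 were higher and 10172 lower. The shares of genes that follow rest on detection in at least 1 area. With 1 probe per gene, the brightest, 14414 named genes were tested, of which 4863 (33.7%) were higher and 5986 (41.5%) lower. At least 2-fold differences were found for 582 genes higher (4.04%) and 560 genes lower (3.89%) in accumbens. The median difference over all genes was -0.05. Pools of the areas did not overlap for 59.1% of genes, 26.1% higher and 33% lower in accumbens. These shares over all genes are the measure for the counts of markers and list members below.

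The areas stood far apart. The first principal component of the 12 pools held 84.2% of the variance, and log2 levels of 2 pools correlated at 0.992 to 0.996 within accumbens, at 0.996 to 0.998 within hippocampus and at 0.952 to 0.970 between them. The hippocampus arrays, on 2 slides, were scanned in a session of their own, while the accumbens arrays, on 3 slides, shared slides and session with prefrontal cortex. Area, slide and session therefore cannot be told apart. The hippocampus arrays were also brighter, with green medians of 155 to 209 against 78.2 to 100.4 in accumbens. Of the probes tested, 28795 were detected in accumbens and 33711 in hippocampus. Because the prefrontal arrays were read in the accumbens session, their values are given beside the main results. In a joint fit of the 18 pools, 46.5% of probes passed between accumbens and prefrontal cortex and 72.7% between prefrontal cortex and hippocampus, while 1.87% differed at least 2-fold between accumbens and prefrontal cortex and 5.61% between prefrontal cortex and hippocampus. In bulk tissue, fewer cells of a type and less RNA per cell cannot be told apart in any of these results.

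**Figure D1:**
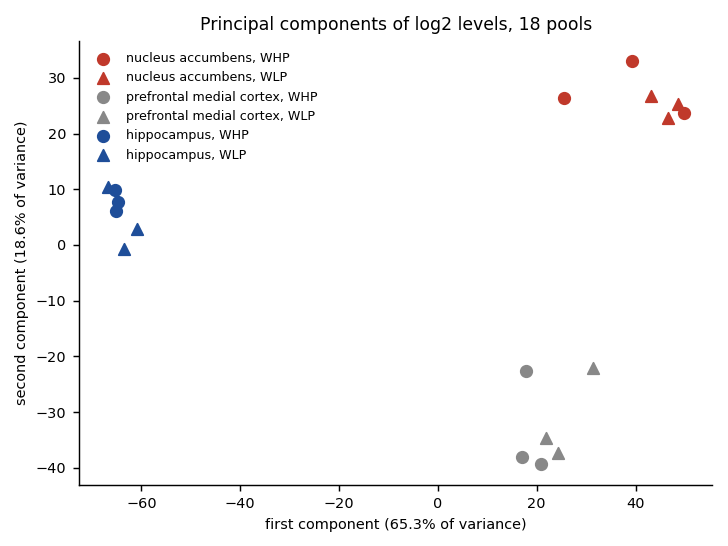
Positions of the 18 pools on the first and second principal components of the log2 levels of 34073 probes, with 1 point per pool, coloured by area and shaped by strain. The first component (65.3% of the variance) runs from 25.6 to 49.7 in accumbens pools and from -66.8 to -60.8 in hippocampus pools, with prefrontal pools at 16.9 to 31.4, and the second (18.6%) separates accumbens from prefrontal pools.

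The tissue labels were checked against 10 markers of striatum and 10 of hippocampus. Of the striatal markers, 9 were higher in accumbens, and 8 had pools that did not overlap between the areas. All 10 hippocampal markers were lower in accumbens, 9 of them without overlap. Over all genes tested, 33.7% were higher, 41.5% were lower and 59.1% had pools without overlap. The median difference was 2.10 over the striatal and -1.01 over the hippocampal markers. The exception was Drd2, the dopamine receptor of indirect-pathway neurons, at 7.44, 7.68 and 8.10 (lowest, median and highest) in accumbens pools and 7.65, 7.66 and 7.69 in hippocampus pools. Its difference of 0.06 ± 0.09 did not pass the test (adjusted p = 0.529), and the accumbens pools lay on both sides of the hippocampus pools. The prefrontal pools carried most striatal markers at about the accumbens level: over the medium spiny neuron list, the median difference of accumbens minus prefrontal was -0.01, and that of prefrontal minus hippocampus was 0.79. The prefrontal pools are therefore no comparison without striatal markers, and their values are given only as a second level read in the accumbens session.

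**Figure D2:**
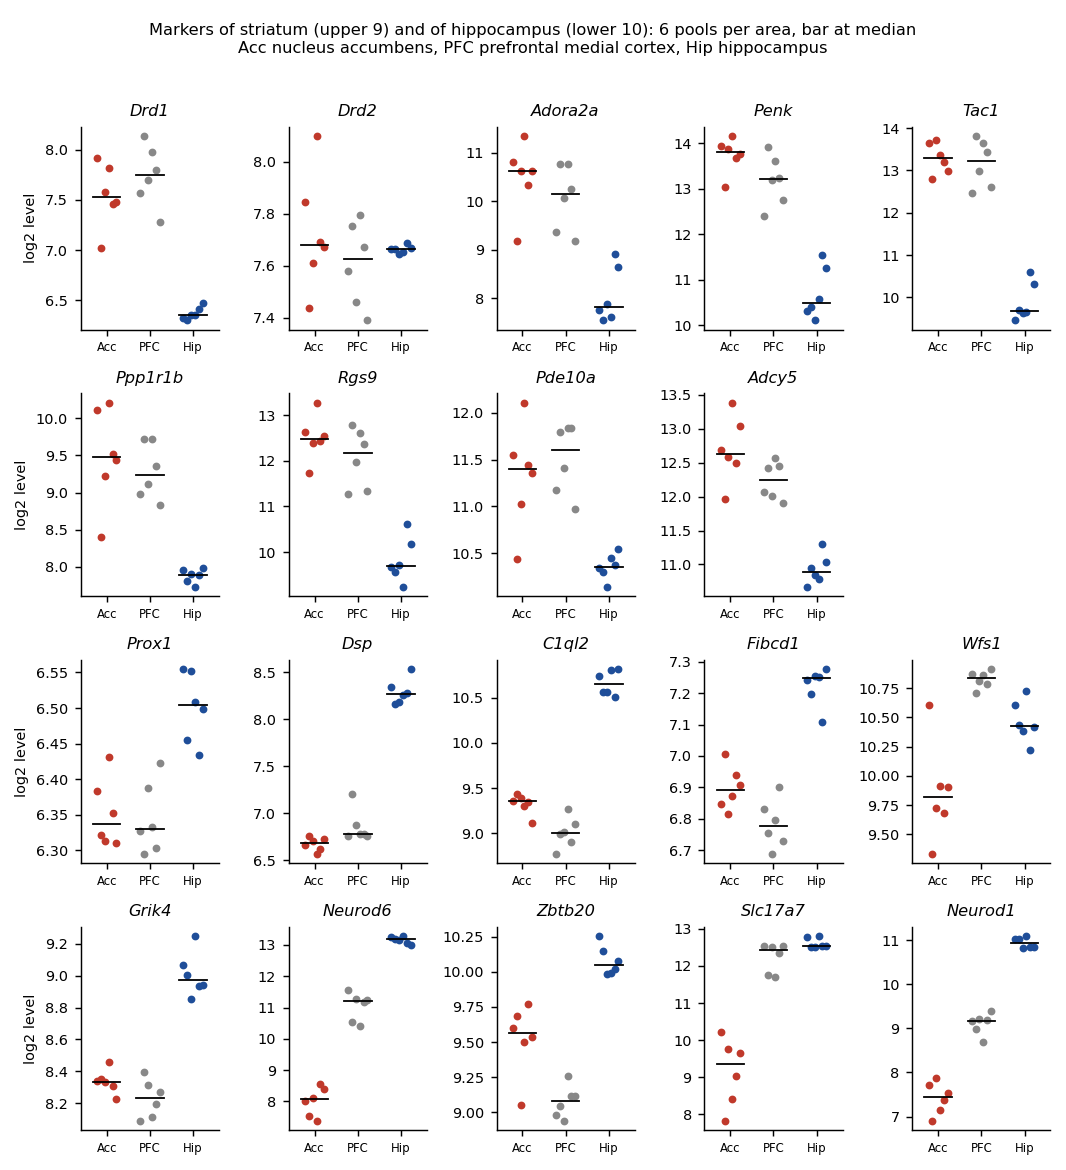
Log2 level in each pool for 9 of the 10 striatal and the 10 hippocampal markers, 1 panel per gene, with accumbens left, prefrontal cortex in the middle and hippocampus right, and a bar at each median. Accumbens points stand above hippocampus points for 7 striatal markers, touch them for Pde10a and Drd2, and stand below them for 9 hippocampal markers, with overlap for Wfs1.

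Accumbens pools WHP 2 and WHP 3 stood apart from the others. On the first component of the 12 pools WHP pool 3 lay at 37.9, against 52.5 to 61.2 in the other accumbens pools. For WHP pool 2, the mean level over the medium spiny neuron list was 10.28, against 10.74 to 11.16 in the other accumbens pools. Its mean over genes of glutamatergic pallial neurons was also the lowest at 10.69, against 11.20 to 11.51, and its mean over genes of meninges and fibroblasts was the highest at 11.63, against 9.41 to 10.98. In hippocampus, WLP pools 2 and 3 had the highest medium spiny neuron means, 10.18 and 10.10, against 9.84 to 9.89 in the others. Without accumbens pool pair 2, the test called 11819 probes higher and 13156 lower, and the median difference over the medium spiny neuron list was 1.07. Without accumbens pool pair 3 it called 11977 higher and 13420 lower, and that median was 0.99.

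Genes of medium spiny neuron signalling were mostly higher in accumbens. Of 29 measured, 18 were higher and 3 lower, 13 and 1 of them at least 2-fold, and the median difference was 0.91. Over all genes, 33.7% were higher and 41.5% lower. The list counts include Arpp21, whose probes disagreed in sign. The head of this signalling chain is the dopamine-sensitive production of cyclic AMP. Adcy5, the main adenylyl cyclase of striatum, lay at 11.97, 12.63 and 13.39 in accumbens pools and 10.67, 10.89 and 11.30 in hippocampus pools. The groups did not overlap, and the difference was 1.76 ± 0.17 (3.39-fold; adjusted p = 1.46e-06). Gnal, the G protein alpha subunit that couples striatal receptors to that cyclase, was higher by 1.32 ± 0.12, and Gng7, its gamma subunit, by 1.83 ± 0.21. Ppp1r1b, which encodes the phosphatase inhibitor DARPP-32, lay at 8.40, 9.48 and 10.21 in accumbens and 7.73, 7.90 and 7.99 in hippocampus pools. It differed by 1.60 ± 0.26 (adjusted p = 0.000104), again without overlap. Breakdown of cyclic nucleotides was represented by Pde1b, higher by 1.39 ± 0.16, and by Pde10a, higher by 0.96 ± 0.19 but with overlapping pools. Under median scaling the difference of Pde10a was 0.56 and did not pass the test. Ptpn5, a striatum-enriched tyrosine phosphatase, was higher by 1.23 ± 0.10.

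The same list held regulators of receptor signalling with wide separation. Rgs9, which speeds GTP hydrolysis behind dopamine and opioid receptors, lay at 11.74, 12.49 and 13.28 in accumbens and 9.23, 9.70 and 10.61 in hippocampus, a difference of 2.67 ± 0.25 without overlap. Rasgrp2, a calcium-dependent activator of Rap proteins, was higher by 2.23 ± 0.15, and the potassium channel gene Kcnk2 by 1.52 ± 0.12. On the other side stood Itpr1, the inositol trisphosphate receptor, lower with a difference of -1.02 ± 0.17, and Dgkb, a diacylglycerol kinase, with a difference of -0.59 ± 0.11. Accumbens minus prefrontal differences were 0.45 for Rgs9, 0.46 for Adcy5 and 0.19 for Ppp1r1b.

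Genes that mark the direct-pathway neurons were higher in accumbens in 7 of 8 cases, with a median difference of 0.98. The shares over all genes were 33.7% higher and 41.5% lower. Tac1, the precursor of substance P, showed the largest step: 12.79, 13.28 and 13.72 in accumbens pools and 9.46, 9.68 and 10.60 in hippocampus pools. No accumbens pool came near a hippocampus pool, and the difference was 3.39 ± 0.24 (10.5-fold; adjusted p = 1.02e-07). Drd1 itself lay at 7.02, 7.53 and 7.92 in accumbens and 6.30, 6.36 and 6.48 in hippocampus, where only 1 of 12 channels stood above background, and differed by 1.17 ± 0.13. With that level close to background its size depends on the background correction, at 1.95 with a normexp offset of 10 and 4.41 with the scanner's processed signals. Isl1, a homeobox factor of these neurons, was above background on 6 of 12 hippocampus channels and was higher by 2.69 ± 0.16, or 5.64 with the processed signals. Ebf1, another of their transcription factors, was higher by 0.79 ± 0.10. Pdyn, the dynorphin precursor, which dentate granule cells make as well, lay at 11.52, 12.66 and 12.98 in accumbens and 11.94, 11.98 and 12.19 in hippocampus. Those pools overlapped, and its difference of 0.48 ± 0.20 (adjusted p = 0.0424) was -0.02 under median scaling. Its call, which is among the 7 of 8, was lost in 12 of the 27 alternatives with a test. Beside median scaling these were the scanner's processed signals, the slide or the replicate number within strain as a block, 6 pair means, all 18 pools and the WHP pools alone. The others left out accumbens pool pair 1 or 3 or any hippocampus pool pair, and in the 11 beside median scaling the difference was 0.31 to 0.54.

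Genes of the indirect pathway divided, with 3 of 8 higher and 3 lower, beside 33.7% higher and 41.5% lower over all genes. The 3 that were higher were all at least 2-fold. Adora2a, the adenosine receptor that opposes dopamine in these neurons, lay at 9.19, 10.63 and 11.36 in accumbens and 7.54, 7.81 and 8.91 in hippocampus pools. It did not overlap and differed by 2.44 ± 0.32 (5.41-fold; adjusted p = 1.91e-05). Gpr6, an orphan receptor that raises cyclic AMP, was higher by 2.48 ± 0.23. Penk, the enkephalin precursor, lay at 13.05, 13.82 and 14.16 in accumbens pools against 10.11, 10.49 and 11.55 in hippocampus pools, a difference of 3.04 ± 0.22 (adjusted p = 1.43e-07). Penk is read by a bright and a dim probe, which are shown because only the bright one separated the areas. The dim probe differed by 0.01 ± 0.05. Both sequences are the array's own, given 5′ to 3′ with rn4 positions.
Penk, bright probe (chr5:17509637-17509696, minus strand): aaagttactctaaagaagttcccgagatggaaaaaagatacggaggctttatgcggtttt
Penk, dim probe (chr5:17514076-17514135, minus strand): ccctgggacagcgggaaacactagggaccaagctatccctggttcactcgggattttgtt

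Transcription factors of the developing and mature striatum were higher in 12 and lower in 8 of 23 cases. Over all genes, 33.7% were higher and 41.5% lower. All 6 of the striatal factors that differed at least 2-fold were higher in accumbens. Dlx5, a homeobox factor of GABAergic neurons, was higher by 1.76 ± 0.11. Meis2, a homeobox factor of striatal projection neurons, lay at 12.54, 13.21 and 13.40 in accumbens and 11.24, 11.44 and 11.68 in hippocampus pools. It differed by 1.69 ± 0.11 (adjusted p = 5.89e-08) without overlap. Pbx3, a partner of such factors, was higher by 1.57 ± 0.12, and Rxrg, a retinoid X receptor of striatum, by 1.44 ± 0.13. Among those lower in accumbens was Hivep2, a zinc finger factor, with a difference of -0.84 ± 0.06.

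Some genes of acetylcholine handling carried wide steps, though the list as a whole did not lean far. Slc18a3, the vesicular acetylcholine transporter, lay at 12.06, 12.23 and 12.41 in accumbens and 7.68, 8.0 and 8.23 in hippocampus pools. The groups were far apart, at 4.27 ± 0.10 (19.3-fold; adjusted p = 4.10e-11). Slc5a7, the choline transporter, lay at 11.09, 11.30 and 11.78 in accumbens and 7.25, 8.15 and 8.80 in hippocampus and was higher by 3.26 ± 0.21. Lhx8, a homeobox factor of forebrain cholinergic neurons, was higher by 1.85 ± 0.08 (1.78 to 3.37 over the other settings tried). Zic1, a zinc finger factor of striatal and septal neurons, was higher by 1.63 ± 0.23. Ngfr, the p75 neurotrophin receptor of basal forebrain cholinergic neurons, lay at 9.99, 10.20 and 10.51 in accumbens and 6.75, 6.86 and 7.03 in hippocampus, a difference of 3.34 ± 0.11. The Ngfr difference ran from 3.16 to 5.15 over the other settings tried. Over the whole cholinergic list, 11 of 23 genes were higher, 5 lower and 7 not called, with a median difference of 0.08. Over all genes, 33.7% were higher and 41.5% lower. Accumbens minus prefrontal differences were 1.39 for Slc18a3 and 1.01 for Slc5a7. The Slc18a3 probe is shown as the single probe of a marker with a wide and even step.
Slc18a3 probe (chr16:7969820-7969879, minus strand): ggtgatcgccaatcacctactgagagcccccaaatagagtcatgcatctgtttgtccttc

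Of 15 genes of dopamine reception and handling, 8 were higher and 5 lower, and of 15 ventral striatal genes 8 were higher and 4 lower, beside 33.7% higher and 41.5% lower over all genes. Slc18a2, the vesicular monoamine transporter, lay at 8.73, 9.31 and 10.08 in accumbens and 7.18, 7.28 and 7.59 in hippocampus, a difference of 2.06 ± 0.29, or 1.39 as the median over its probes. Ddc, which makes dopamine and serotonin from their precursors, was higher by 1.5 ± 0.10. Calcr, the calcitonin receptor, which binds amylin with its partner proteins, lay at 11.13, 11.85 and 12.53 in accumbens and 6.54, 6.65 and 6.74 in hippocampus. With 5.14 ± 0.18 (35.3-fold; adjusted p = 5.40e-10) it had the largest difference on the lists of receptors. Over the other settings tried that difference ran from 4.85 to 7.40, so the size of the fold depends on the setting. Cartpt, the precursor of the CART peptides, was higher by 1.62 ± 0.23, Pnoc, the nociceptin precursor, by 1.47 ± 0.09, and Ngb, neuroglobin, by 1.84 ± 0.09. Drd3, a dopamine receptor typical of ventral striatum and the islands of Calleja, read lower, at 7.37, 7.40 and 7.50 in accumbens and 7.77, 7.86 and 7.95 in hippocampus. The difference of -0.44 ± 0.04 is opposite to its use as a marker of accumbens. It rests on 1 detected probe, and whether that probe reads Drd3 alone was not tested. Crym, a thyroid hormone-binding protein, was lower in accumbens, with a difference of -1.5 ± 0.23.

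The opposite pole of the comparison was held by transcription factors of pallial glutamatergic neurons. Of 31 measured, 20 were lower in accumbens and 3 higher, with a median difference of -0.56. The shares over all genes were 41.5% lower and 33.7% higher. Neurod6, a basic helix-loop-helix factor of pyramidal cells, lay at 7.38, 8.07 and 8.54 in accumbens and 13.00, 13.18 and 13.28 in hippocampus pools. The highest accumbens pool was far below the lowest hippocampus pool, and the difference was -5.15 ± 0.21 (35.6-fold lower; adjusted p = 1.35e-09). Its relatives were lower too: Neurod2 lay at 7.50, 8.97 and 9.40 in accumbens and 12.13, 12.39 and 12.48 in hippocampus (difference -3.70 ± 0.31), and Neurod1, a factor of dentate granule cells, at 6.90, 7.45 and 7.88 in accumbens and 10.81, 10.94 and 11.09 in hippocampus (difference -3.52 ± 0.16). The homeobox factors Lhx2 and Emx2, which pattern the pallium, differed by -2.45 ± 0.18 and -1.83 ± 0.11. Fezf2, a zinc finger factor of deep cortical layers, differed by -2.57 ± 0.22. Nr2f2, an orphan nuclear receptor, was the member furthest on the other side, higher by 1.87 ± 0.13. Accumbens minus prefrontal was -3.03 for Neurod6 and -2.67 for Neurod2.
Neurod6 probe (chr4:84476791-84476850, minus strand): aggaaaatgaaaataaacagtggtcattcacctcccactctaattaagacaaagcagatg

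Markers of the hippocampal fields were lower in accumbens more often than higher, though many of them did not differ by much. Of the dentate list 10 of 18 genes were lower and 6 higher. Of the CA1 and subiculum list 12 of 20 were lower and 2 higher, and of the CA2 and CA3 list 11 of 22 were lower and 6 higher. Over all genes, 41.5% were lower and 33.7% higher, so these lists leaned to the same side as the genes at large. In dentate gyrus, C1ql3, a secreted synaptic organiser, lay at 10.47, 11.23 and 11.84 in accumbens and 13.59, 13.64 and 13.80 in hippocampus, a difference of -2.48 ± 0.19. Its relative C1ql2, of mossy fibre synapses, differed by -1.34 ± 0.08, and Dsp, desmoplakin, by -1.62 ± 0.07 with 9 of 12 accumbens channels above background (-3.42 with the scanner's processed signals). Prox1, the homeobox factor that defines granule cells, was above background on no accumbens channel and 11 of 12 hippocampus channels. Its measured difference was -0.15 ± 0.04, and the bound was at least 1.07-fold lower in accumbens, taken against the lowest signal above background on each array. Under median scaling the measured difference was 0.03.

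In the CA fields the largest step belonged to Mas1, an angiotensin-peptide receptor. It lay at 6.82, 7.46 and 8.53 in accumbens and 11.97, 12.10 and 12.30 in hippocampus pools, without overlap, and differed by -4.47 ± 0.27 (22.1-fold lower; adjusted p = 2.49e-08). Rgs14, which restrains plasticity in CA2 cells, differed by -2.12 ± 0.14, and Grik4, a kainate receptor subunit of CA3, by -0.67 ± 0.07. Pcp4, a calmodulin-binding protein used as a marker of CA2 that striatum also makes, was higher in accumbens by 1.25 ± 0.16. Of CA1 genes, Dkk3, a secreted Dickkopf protein, lay at 9.19, 9.55 and 9.85 in accumbens and 12.14, 12.20 and 12.36 in hippocampus, a difference of -2.70 ± 0.12. Nptx1, a neuronal pentraxin that clusters AMPA receptors, differed by -2.59 ± 0.16, and Ccn3, a secreted matricellular protein, by -2.14 ± 0.32. Fibcd1 and Wfs1, both used as CA1 markers, differed by only -0.32 ± 0.05 and -0.60 ± 0.19. The Wfs1 pools of the areas overlapped, and without hippocampus pool pair 1 its difference was -0.50 and did not pass.

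Genes shared by glutamatergic neurons of cortex and hippocampus were lower in accumbens almost throughout. Of 28 measured, 25 were lower and 0 higher, 16 of them at least 2-fold, with a median difference of -1.29. Among all genes tested, 41.5% were lower, 3.89% at least 2-fold, and 33.7% were higher. Here the prefrontal pools sided with hippocampus: the median accumbens minus prefrontal difference was -1.29 and the median prefrontal minus hippocampus difference -0.07. Slc17a7, the vesicular glutamate transporter VGLUT1, lay at 7.82, 9.34 and 10.21 in accumbens and 12.52, 12.54 and 12.80 in hippocampus pools. The difference was -3.47 ± 0.39 (11.1-fold lower; adjusted p = 4.68e-06). Its dimmer probe gave -1.34 ± 0.15. Both are printed because they point the same way by different amounts.
Slc17a7, brighter probe (chr1:95652309-95652368, plus strand): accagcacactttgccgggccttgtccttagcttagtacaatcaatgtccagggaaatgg
Slc17a7, dimmer probe (chr1:95649107-95649166, plus strand): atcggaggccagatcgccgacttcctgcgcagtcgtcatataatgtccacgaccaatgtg

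Other members of this group were spread over the synapse. Nrn1, a neurite-promoting surface protein, lay at 8.37, 8.78 and 9.20 in accumbens and 11.13, 11.39 and 11.49 in hippocampus, a difference of -2.57 ± 0.13. Nptxr, the receptor of neuronal pentraxins, differed by -2.34 ± 0.14, and Ptk2b, a calcium-activated tyrosine kinase, by -2.36 ± 0.16. Hpca, the calcium sensor hippocalcin, lay at 11.95, 12.87 and 13.38 in accumbens and 14.91, 15.11 and 15.32 in hippocampus (difference -2.30 ± 0.20), without overlap. Nrgn, neurogranin, which holds calmodulin in spines, differed by -2.0 ± 0.20, Itpka, a kinase of inositol trisphosphate, by -1.76 ± 0.29, and Camk2a, the alpha subunit of calcium/calmodulin-dependent kinase II, by -0.73 ± 0.19. The peptide Cck differed by -1.27 ± 0.13 between accumbens and hippocampus and by -2.37 between accumbens and prefrontal cortex.

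**Figure D3:**
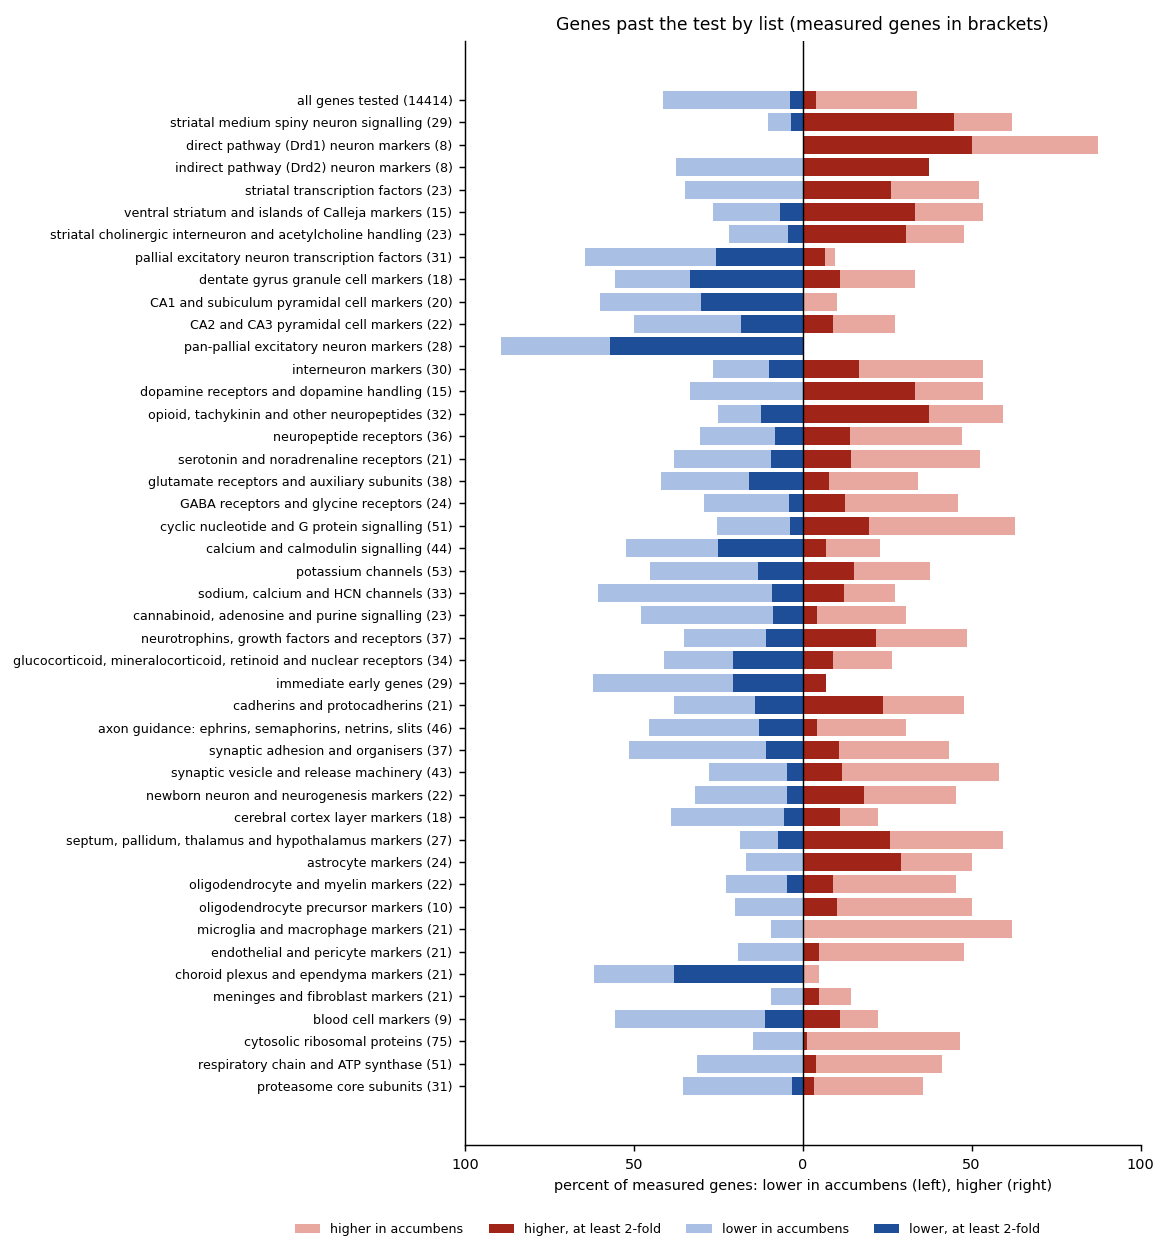
Share of the measured genes of each list that were higher (right) or lower (left) in accumbens at an adjusted p under 0.05, with the part that differed at least 2-fold in the darker shade, and the same over all 14414 genes in the top row. The direct-pathway list reaches furthest to the right, with 7 of 8 genes higher, and the pan-pallial list furthest to the left, with 25 of 28 lower, against 33.7% higher and 41.5% lower over all genes.

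Genes that make GABA or load it into vesicles went the other way. Slc32a1, the vesicular GABA transporter, lay at 13.39, 13.54 and 13.63 in accumbens and 10.89, 11.07 and 11.27 in hippocampus, a difference of 2.46 ± 0.06 (5.49-fold; adjusted p = 5.21e-11). Gad1 and Gad2, which make GABA, were higher by 1.62 ± 0.09 and 1.34 ± 0.04, both without overlap. Calb2, calretinin, was higher by 2.13 ± 0.12, and Cort, the cortistatin precursor of some cortical interneurons, was lower, with a difference of -1.68 ± 0.24. Interneuron markers as a list were higher in 16 and lower in 8 of 30 cases. Among GABA and glycine receptor subunits, 11 of 24 were higher and 7 lower, beside 33.7% higher and 41.5% lower over all genes. Gabra5, the alpha subunit of extrasynaptic hippocampal receptors, lay at 7.80, 7.84 and 8.03 in accumbens and 9.54, 9.78 and 9.97 in hippocampus and differed by -1.89 ± 0.07. Gabra3 stood on the other side, higher by 1.71 ± 0.08 (1.66 to 3.22 over the other settings tried). So did the glycine receptor subunit gene Glra3, higher by 1.77 ± 0.07 with 6 of 12 hippocampus channels above background (4.86 with the scanner's processed signals).

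Glutamate receptor genes divided almost evenly, 13 higher and 16 lower of 38, with a median difference of 0.01, or -0.15 under median scaling. Grin2a, an NMDA receptor subunit, lay at 8.05, 8.65 and 9.01 in accumbens and 10.01, 10.30 and 10.41 in hippocampus, a difference of -1.66 ± 0.15 without overlap. Gria2, the AMPA subunit that limits calcium entry, differed by -1.51 ± 0.09, and the scaffold Shank3 by -1.20 ± 0.08. The metabotropic receptor gene Grm8 was higher by 1.49 ± 0.13. Grin3a, an inhibitory NMDA subunit, was higher by 1.26 ± 0.04, with 7 of 12 hippocampus channels above background (3.98 with the scanner's processed signals). Release machinery leaned towards accumbens, with 25 of 43 genes higher and 12 lower, beside 33.7% higher and 41.5% lower over all genes. Rab3b, a vesicle GTPase, was higher by 2.15 ± 0.12 and Cplx1, a complexin that clamps fusion, by 1.45 ± 0.09.

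Receptors of monoamines and peptides showed single large steps within mixed lists. Adra1d, an alpha-adrenergic receptor, lay at 7.54, 8.36 and 8.45 in accumbens and 12.31, 12.41 and 12.55 in hippocampus and differed by -4.20 ± 0.14 (18.4-fold lower; adjusted p = 4.28e-10). Htr5b, a serotonin receptor whose human counterpart is a pseudogene, lay at 7.52, 7.65 and 7.84 in accumbens and 10.33, 10.51 and 10.61 in hippocampus, without overlap (difference -2.82 ± 0.06). Htr1d, another serotonin receptor, was higher by 1.18 ± 0.10, with 6 of 12 hippocampus channels above background (3.89 with the scanner's processed signals). Of 21 serotonin and noradrenaline receptors, 11 were higher and 8 lower, beside 33.7% higher and 41.5% lower over all genes. Of 36 peptide receptors, 17 were higher and 11 lower. They included the tachykinin receptor genes Tacr3, higher by 1.34 ± 0.10, and Tacr2, with a difference of -1.39 ± 0.12. Over the other settings tried these ran from 1.17 to 2.38 and from -2.73 to -1.13. The somatostatin receptor gene Sstr1 was higher by 1.19 ± 0.16. The cannabinoid receptor gene Cnr1 lay at 10.51, 11.02 and 11.49 in accumbens and 12.41, 12.52 and 12.66 in hippocampus, a difference of -1.52 ± 0.14.

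Calcium signalling was lower in accumbens in 23 of 44 genes and higher in 10, with a median difference of -0.30, which was -0.63 under median scaling and -0.11 with the median over the probes of each gene. Prkce, protein kinase C epsilon, differed by -1.98 ± 0.09 and Camkk2, an upstream kinase of calmodulin-dependent kinases, by -1.92 ± 0.14. Hpcal1, a neuronal calcium sensor related to hippocalcin, went the other way and was higher by 2.38 ± 0.08, so that these related sensors, Hpca and Hpcal1, stood on opposite sides. Cyclic nucleotide and G protein genes were higher in 32 and lower in 13 of 51 cases, with a median of 0.50, or 0.16 under median scaling. Over all genes, 33.7% were higher and 41.5% lower.

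Ion channel genes stood on both sides. Of 53 potassium channel genes, 20 were higher and 24 lower, beside 33.7% higher and 41.5% lower over all genes. Kcnj6, the GIRK2 subunit opened by inhibitory receptors, lay at 7.49, 7.93 and 8.10 in accumbens and 10.22, 10.73 and 10.83 in hippocampus (difference -2.83 ± 0.13, or -1.5 as the median over its probes). Kcnq3, a subunit of the M current, differed by -1.93 ± 0.11, and Kcnn2, a small-conductance calcium-activated channel, by -1.91 ± 0.08. Kcnj16, an inward rectifier, was higher by 1.78 ± 0.13. Of 33 sodium, calcium and HCN channel genes, 20 were lower and 9 higher. Scn3b, an auxiliary subunit, differed by -1.85 ± 0.09.

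Of 37 genes of neurotrophins, growth factors and their receptors, 18 were higher and 13 lower, and of 34 nuclear receptor genes 9 were higher and 14 lower, beside 33.7% higher and 41.5% lower over all genes. Gdnf, a survival factor of dopamine neurons, lay at 11.71, 13.09 and 13.28 in accumbens and 10.08, 10.27 and 10.34 in hippocampus (difference 2.5 ± 0.27), and Gfra2, the neurturin receptor, was higher by 2.25 ± 0.13. Bdnf and Ntf3, neurotrophins of hippocampal neurons, were lower, with differences of -1.65 ± 0.10 and -2.01 ± 0.12. For Ntf3 it ran from -3.61 to -1.91 over the other settings tried. Nr3c2, the mineralocorticoid receptor, lay at 9.97, 10.29 and 10.44 in accumbens and 12.59, 12.68 and 12.86 in hippocampus, a difference of -2.48 ± 0.10, or -1.13 over its probes. Immediate early genes, switched on by neuronal activity, were lower in 18 and higher in 2 of 29 cases. Nr4a3, an orphan nuclear receptor, differed by -2.93 ± 0.13, or -1.68 over its probes. Dusp5, a phosphatase of MAP kinases, differed by -2.66 ± 0.15, and Arc, a regulator of AMPA receptor removal, by -1.56 ± 0.23. For Arc the accumbens minus prefrontal difference was -2.65.

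Of the guidance list 21 of 46 genes were lower and 14 higher, and of the cadherins 8 of 21 were lower and 10 higher, beside 41.5% lower and 33.7% higher over all genes. Robo3, a receptor of the Slit pathway, lay at 7.05, 7.24 and 7.45 in accumbens and 10.55, 10.96 and 11.12 in hippocampus and differed by -3.64 ± 0.10, or -2.10 over its probes. The ephrin receptor genes Epha4 and Epha7 differed by -2.61 ± 0.11 and -2.18 ± 0.10. The semaphorin gene Sema3f was higher by 1.32 ± 0.07 (1.30 to 3.14 over the other settings tried). For Epha4 the median over its probes was -0.72. Among cadherins, Cdh9 differed by -2.16 ± 0.09, while Pcdh11x, a protocadherin, was higher by 1.99 ± 0.11.

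**Figure D4:**
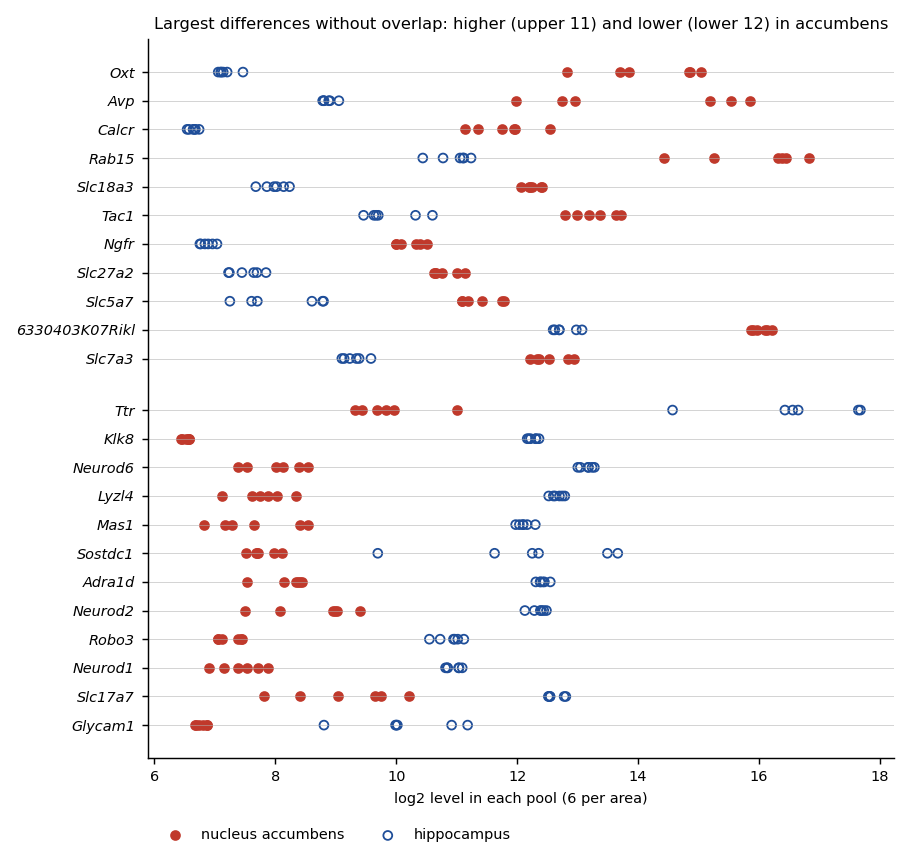
Log2 level in each pool for 11 of the 12 genes with the largest positive (upper block) and the 12 with the largest negative differences (lower block) among genes whose pools did not overlap, accumbens as filled and hippocampus as open circles. Oxt at 7.0 and Ttr at -6.71 have the largest differences between the means of the areas, and Avp has the most spread accumbens pools.

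The largest differences belonged to genes best known from other brain tissue or other cell types. Oxt and Avp, the oxytocin and vasopressin precursors made by hypothalamic neurons, stood first among genes higher in accumbens. Oxt lay at 12.82, 14.34 and 15.03 in accumbens and 7.05, 7.12 and 7.46 in hippocampus (difference 7.0 ± 0.40, 128-fold), and Avp at 11.98, 14.07 and 15.85 in accumbens and 8.78, 8.84 and 9.05 in hippocampus (difference 5.17 ± 0.76). Prefrontal pools spread even wider, at 8.98, 11.85 and 13.01 for Oxt and 9.14, 11.13 and 13.04 for Avp. Gal, the galanin precursor, was higher by 3.09 ± 0.18. Over the list of septal, pallidal, thalamic and hypothalamic genes, 16 of 27 were higher and 5 lower. The shares over all genes were 33.7% higher and 41.5% lower. The mean level of the list ran from 9.28 to 9.62 in accumbens pools and from 8.45 to 8.82 in hippocampus pools. The part of neighbouring tissue in the accumbens results was not tested.

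On the hippocampal side, Ttr, transthyretin, the main secreted protein of choroid plexus, had the largest difference among genes lower in accumbens. It lay at 9.32, 9.75 and 11.01 in accumbens and 14.57, 16.60 and 17.68 in hippocampus pools, a difference of -6.71 ± 0.56 (105-fold lower; adjusted p = 4.04e-07). Sostdc1, a secreted Wnt and BMP antagonist of choroid plexus, differed by -4.40 ± 0.55. Kcnj13, a potassium channel of that epithelium, lay at 6.56, 7.69 and 9.54 in accumbens, on 10 of 12 channels above background, and 8.85, 10.70 and 11.86 in hippocampus, with overlap (difference -2.93 ± 0.53). Over the choroid plexus and ependyma list 13 of 21 genes were lower and 1 higher in accumbens. The shares over all genes were 41.5% lower and 33.7% higher. The mean level of the choroid plexus list ran from 7.71 to 8.24 in accumbens pools and from 8.40 to 9.93 in hippocampus pools. In prefrontal cortex it was 9.58 in WHP pool 2 and 7.41 to 7.81 in the other pools. Prefrontal Ttr lay at 7.62, 7.93 and 17.84, so its highest pool stood above every hippocampus pool. The prefrontal median and highest level were 7.02 and 12.79 for Sostdc1, and 8.02 and 10.89 for Kcnj13. The part of choroid plexus in the genes lower in accumbens was not tested.

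Glial genes differed by less. Mbp and Cnp, of myelin, were higher in accumbens: Mbp lay at 13.56, 14.98 and 15.54 in accumbens and 11.86, 12.53 and 12.83 in hippocampus (difference 2.35 ± 0.32), and Cnp differed by 2.05 ± 0.29. Of 22 oligodendrocyte genes, 10 were higher and 5 lower, and Enpp2, autotaxin, which choroid plexus makes too, was lower, with a difference of -1.61 ± 0.27. Of 24 astrocyte genes, 12 were higher and 4 lower. Agt, angiotensinogen, lay at 14.61, 14.79 and 15.06 in accumbens and 13.15, 13.22 and 13.55 in hippocampus, a difference of 1.52 ± 0.09, and Slc7a10, an amino acid transporter of astrocytes, was higher by 1.67 ± 0.07. Of 21 microglial genes, 13 were higher and 2 lower, none at least 2-fold. Csf1r, the receptor that microglia need to survive, was higher by 0.96 ± 0.11. The medians of the oligodendrocyte and astrocyte lists, 0.22 and 0.27, changed sign under median scaling, to -0.04 in both. Over meningeal and fibroblast genes, 3 of 21 were higher and 2 lower. The shares over all genes were 33.7% higher and 41.5% lower.

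**Figure D5:**
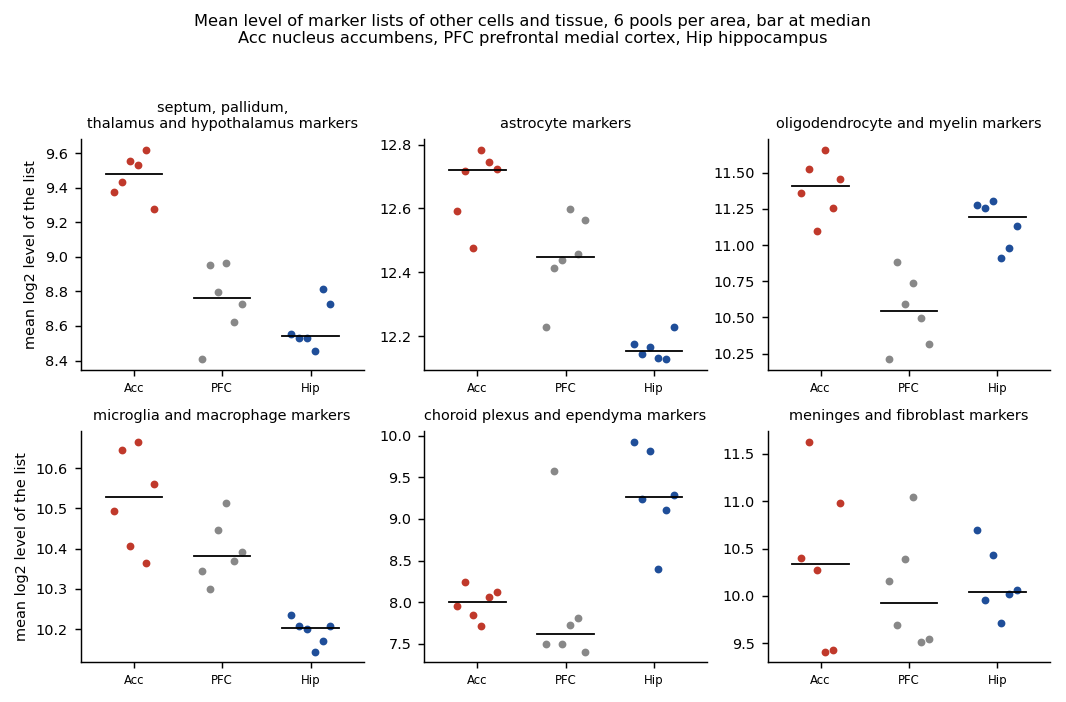
Mean log2 level over the genes of 6 lists in each pool, with accumbens left, prefrontal cortex in the middle and hippocampus right and a bar at each median. The choroid plexus list lies at 7.71 to 8.24 in accumbens pools and 8.40 to 9.93 in hippocampus pools, while the meninges list overlaps, at 9.41 to 11.63 in accumbens and 9.71 to 10.70 in hippocampus.

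Some genes with wide differences were on no list. Klk8, the secreted protease neuropsin, lay at 6.45, 6.54 and 6.58 in accumbens, on 1 of 12 channels above background, and 12.17, 12.26 and 12.36 in hippocampus. Its difference of -5.74 ± 0.05 rests on an accumbens level close to background, so that its size depends on the background correction: it was -6.74 with a normexp offset of 10 and -8.43 with the scanner's processed signals. Slc27a2, a fatty acid transporter, lay at 10.62, 10.70 and 11.13 in accumbens and 7.22, 7.54 and 7.84 in hippocampus (difference 3.28 ± 0.14), and Slc7a3, a transporter of cationic amino acids, was higher by 3.24 ± 0.15. Lyzl4, a lysozyme-like gene, differed by -4.87 ± 0.17. Glycam1, a mucin-like glycoprotein known from endothelium and milk, differed by -3.38 ± 0.32, with 11 of 12 accumbens channels above background (-5.31 with the scanner's processed signals).
Klk8 probe (chr1:94233905-94233964, plus strand): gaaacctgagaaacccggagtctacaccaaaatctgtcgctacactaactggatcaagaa

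Probes of a gene did not always tell the same story. Of 358 genes whose brightest probe differed at least 2-fold and that had another detected probe, the second brightest was called the same way in 250, the other way in 47 and not called in 61. Rab15, a GTPase of endosome recycling, was the case with the largest difference. Its brightest probe lay at 14.43, 16.35 and 16.83 in accumbens and 10.44, 11.08 and 11.24 in hippocampus (difference 4.99 ± 0.38), while its second probe differed by 0.35 ± 0.11. For Arpp21, a cyclic AMP-regulated phosphoprotein of striatal and cortical neurons, the brightest probe gave 2.12 ± 0.22 and the probe furthest away -1.17 ± 0.13, so the gene cannot be placed. The medium spiny neuron counts above take it by its brightest probe. For Bhlhe22, a basic helix-loop-helix factor of pallial neurons, the brightest probe gave -0.23 ± 0.04 and the second -3.72 ± 0.12. The median over probes was 0.39 for Ache, acetylcholinesterase, whose brightest probe gave 1.67 ± 0.09 and whose other probe gave -0.88 ± 0.05. The probes of Rab15, Arpp21 and Bhlhe22 are printed so that their targets can be compared. The brightest Rab15 probe is 73.3% G and C, against 51.7% in the other.
Rab15, brightest probe (chr6:99403097-99403156, minus strand): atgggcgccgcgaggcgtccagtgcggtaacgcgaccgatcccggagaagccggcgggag
Rab15, second probe (chr6:99382873-99382932, minus strand): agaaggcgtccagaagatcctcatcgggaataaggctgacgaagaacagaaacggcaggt
Arpp21, brightest probe (chr8:116790822-116790881, minus strand): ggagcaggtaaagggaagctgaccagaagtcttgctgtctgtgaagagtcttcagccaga
Arpp21, furthest probe (chr8:116675346-116675405, minus strand): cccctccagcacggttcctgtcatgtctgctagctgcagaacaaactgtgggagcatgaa
Bhlhe22, brightest probe (chr2:103087655-103087714, plus strand): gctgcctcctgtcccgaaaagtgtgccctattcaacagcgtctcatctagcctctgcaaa
Bhlhe22, second probe (chr2:103088079-103088138, plus strand): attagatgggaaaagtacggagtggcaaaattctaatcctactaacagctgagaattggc

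Promoters were searched, on both strands, for 2 motifs that bear on the signalling and factors above: the full cyclic AMP response element, spelled TGACG followed at once by TCA and bound by CREB family factors, and an E-box of the NeuroD type, spelled CAGATGG. RefSeq promoters on the GRCr8 build, 250 bases before to 50 after each start, were matched to 11763 of the 14414 genes. The response element was found in 3.43% of promoters of genes higher in accumbens, 1.82% of those lower, 2.74% of all tested and 1.91% of all 27457 in the table. The E-box was found in 3.38% of those higher, 4.22% of those lower, 3.83% of all tested and 4.87% of the whole table. Among genes at least 2-fold different the order of the E-box shares was the other way, 4.11% of those higher and 2.78% of those lower, while the response element was in 3.7% and 1.39%. Among named genes with a promoter in the table, 3 of 118 higher and 1 of 97 lower held the response element, and 7 of 118 higher and 4 of 97 lower held the E-box. Those with the response element are Cartpt, Gpr6 and Slc18a2, higher in accumbens, and Neurod6, lower. Each is printed as the 100 bases before the start that hold the element, or, for Cartpt, the 100 before those, in lower case with matches to either motif in capitals. A match is a description of the letters in this window, and no test was made.
Cartpt (chr2:32991336-32991435, minus strand): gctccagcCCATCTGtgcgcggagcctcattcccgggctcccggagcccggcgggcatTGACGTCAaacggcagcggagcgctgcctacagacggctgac
Gpr6 (chr20:46075252-46075351, minus strand): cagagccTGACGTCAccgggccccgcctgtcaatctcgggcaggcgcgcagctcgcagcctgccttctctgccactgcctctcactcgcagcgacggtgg
Slc18a2 (chr1:268399921-268400020, plus strand): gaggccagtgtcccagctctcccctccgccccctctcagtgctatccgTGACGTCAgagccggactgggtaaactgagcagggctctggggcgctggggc
Neurod6 (chr4:86180156-86180255, minus strand): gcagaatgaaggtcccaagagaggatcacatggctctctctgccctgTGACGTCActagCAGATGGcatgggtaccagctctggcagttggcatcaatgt

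The area difference itself was tested for a difference between the strains. Of 34073 probes, 1 (0.00293%) passed, for Cnmd, a cartilage glycoprotein that inhibits vessel growth, and 2857 had an unadjusted p under 0.05. The accumbens minus hippocampus difference of Cnmd was -2.68 in WHP and -0.76 in WLP pools, and WHP minus WLP was -1.92 ± 0.19 (adjusted p = 0.0243). Cnmd stood above background on 6 of 12 accumbens channels, and the number of probes passing ran from 0 to 197 over the other settings tried, so the call depends on the setting.

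Genes of basic cell function had medians near 0, on arrays that the normalisation gives one distribution of brightness. Of 75 ribosomal protein genes, 35 were higher and 11 lower, with a median of 0.09. Of 51 genes of the respiratory chain, 21 were higher and 16 lower, with a median of 0.05. Of 31 proteasome genes, 11 were higher and 11 lower, with a median of 0.06. The shares over all genes were 33.7% higher and 41.5% lower. Under median scaling the medians of these lists were -0.11, -0.20 and -0.35, so that their direction depends on the scaling.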

How the data were processed

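The series holds 18 Agilent two-colour arrays of rat brain RNA, of which the 12 of nucleus accumbens and hippocampus were compared. The deposited files are scanner output. They were written by Agilent's Feature Extraction software, version 10.10.1.1, and per the file headers the deposited intensities used here, the mean foreground and the median local background of each spot and dye, were neither background-corrected nor dye-normalised. Areas, dyes, strains and pool numbers come from the labels.

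Intensities were corrected with normexp (offset 50), normalised by loess within arrays with control spots at weight 0, and by Aquantile over the 18 arrays, in limma 3.58.1 (R 4.3.3, statmod 1.5.0). Control spots and spots marked as non-uniform outliers were left out, spots of a probe were averaged, and each pool is the mean of its 2 dye-swapped channels. Probes well above background in at least 9 of the 12 channels of at least 1 area were tested. The offset pulls differences of dim probes towards 0, and Aquantile gives every array the same distribution of average brightness. Precision is limited by the number of arrays and by signal over background: 29175 to 31889 green spots stood above it on accumbens arrays and 34149 to 38080 on hippocampus arrays. No probe was saturated on any channel (0 probe channels).

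The fit (lmFit and eBayes) had area and strain as terms and the pool pair, whose pools share arrays, as a random block (consensus correlation 0.201), with 9 residual degrees of freedom and 2.95 from the prior. Every test was two-sided, with Benjamini-Hochberg adjustment over 34073 probes and a threshold of 0.05. An interaction term tested whether the area difference differed between strains. The alternatives tried were other background corrections, scalings, filters, blocks and sets of pools. The scripts were tested on simulated data.

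Of 41012 probes, 19672 were left unnamed and 46 carry a locus placeholder, and the others were named through the RefSeq gene table by accession or symbol. The text names the genes with the 12 largest differences in each direction without overlap, up to 5 members past the test of each of 44 lists, the markers that define the areas, and any gene past the interaction test. A few genes that meet this rule are not reported here. The members and lists were chosen with earlier results of these data known. The genes shown for disagreeing probes were picked among these after their values were seen. Probe positions are those of the files (rn4), with the strand read from the order of start and end.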

Additional observations from a re-analysis of the deposited data

Results flagged for a closer look

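For 134 genes and 8 list means, the 6 pools of each area were examined for 1 pool far from the rest by Dixon's ratio of gap to range, at its 95% critical value. Of 284 groups of pools, 20 held such a pool, 11 in accumbens and 9 in hippocampus, where chance alone marks about 1 in 20.

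In accumbens, WHP pool 2 was the low pool in 6 of the 11. It lay at 8.90 for Gpr6 (others 9.94 to 10.14), 12.54 for Meis2 (others 13.09 to 13.40) and 11.52 for Pdyn (others 12.44 to 12.98). It lay at 11.60 for Itpka (others 12.91 to 13.55), 10.59 for Dgkb (others 11.20 to 11.37) and 7.54 for Adra1d (others 8.15 to 8.45). WHP pool 3 was low for the myelin genes, at 13.56 for Mbp (others 14.97 to 15.54) and 9.95 for Cnp (others 11.10 to 11.74), and high for Sstr1 at 11.41 (others 10.67 to 10.93). WLP pool 1 was high for Rxrg at 11.997 (others 11.29 to 11.53), and WLP pool 2 for Nr4a3 at 9.32 (others 8.52 to 8.79).

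In hippocampus, WLP pool 2 was low for Kcnj6 at 10.22 (others 10.72 to 10.83), Nptx1 at 12.44 (others 12.74 to 12.91) and Csf1r at 8.60 (others 8.80 to 8.90), and high for Kcnk2 at 11.75 (others 11.29 to 11.38). WLP pool 1 was low for Grm8 at 7.24 (others 7.83 to 8.11) and Pbx3 at 9.32 (others 9.77 to 9.94), and high for Cort at 11.43 (others 11.04 to 11.15). WHP pool 1 was high for Oxt at 7.46 (others 7.05 to 7.20), and WHP pool 2 for Slc18a2 at 7.59 (others 7.18 to 7.29). None of these pools brought accumbens and hippocampus into overlap except the low accumbens pool of Pdyn.

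Cnmd was singled out because its area difference differed between the strains, by -1.92 as WHP minus WLP in the interaction test.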

How the results depend on the processing

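Counts of probes higher (12078) and lower (13501) in accumbens stayed within 1.5 times of these values except with median scaling (7467 higher) and when only 1 probe per gene was tested (4856 and 5970). Counts at 2-fold, 1386 and 1216, were 2176 and 2170 with a normexp offset of 10, 4465 and 5396 with the scanner's processed signals, and 582 and 560 with 1 probe per gene. Median scaling gave 2507 lower at 2-fold. Its share of higher calls was 37.9%, against 47.2%, and its median difference over all probes -0.09, against -0.03. With only the probes detected in both areas, 11444 were higher and 10172 lower. The share of higher calls was then 52.9% and the median difference 0.03, so the side with more calls depends on the filter. Leaving out 1 pool pair gave 11246 to 11977 higher and 12574 to 13420 lower, and 1240 to 1553 and 1138 to 1346 at 2-fold. Same-numbered pool pairs of the areas deviated together at correlations of 0.16, -0.20 and -0.18, and pairs with different numbers at -0.23 to 0.36. So few pairs cannot decide if same-numbered pools came from the same rats. With the replicate number as a block, 12147 probes were higher and 13610 lower.

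The single interaction call became 0 with offset 10, processed signals, quantile normalisation, the replicate block, the Cy5 channels alone and pair ratios. Among probes detected in both areas the number was 0 as well, but that filter left out the Cnmd probe, so its call was not tested there. The number became 2 without background subtraction and 137 with 24 single channels. Leaving out 1 pool pair gave 0 to 197, with 197, 11 and 7 without accumbens pairs 1, 2 and 3.

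Among 134 genes followed, 3 changed sign: Pdyn (-0.022) and Prox1 (0.030) with median scaling, and Drd2, not called in the first place, in WHP pools alone (-0.027) and without accumbens pool pair 1 (-0.061; -0.061 to 0.14 over the pairs). The median over probes moved the value of 25 genes. Differences of 40 of the 134 genes moved by over 1.5 times with the scanner's processed signals, and of 13 with a normexp offset of 10. The cause was not tested for any of these. Of the probes tested, 1543 stood above background on no accumbens channel and 32 on no hippocampus channel, which limits their differences to bounds.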
